A study of Mus musculus with 10 samples.

Results

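In mouse liver, 9 genes whose transcription is read as an output of RAF-ERK signaling were followed, picked by gene symbol: *Dusp6*, *Spry2*, *Spry4*, *Etv4*, *Etv5*, *Egr1*, *Ccnd1*, *Phlda1* and *Fosl1*. All 9 were among the 24052 gene symbols for which reads had been counted, and 6 of them were among the 11208 genes with enough reads to be tested. RNA was sequenced from 10 livers, 5 of wild-type mice and 5 of Ndrg3 LKO mice, with 1 library per liver. The study's own legends for RNA and metabolite levels in these livers give 5 wild-type and 4 Ndrg3 LKO mice. Which Ndrg3 LKO liver is absent there is not stated, and all 10 livers are used here. All mice had a C57BL/6 background (the floxed line was backcrossed to C57BL/6N according to the methods) and were fed ad libitum, and the study used male mice by default. Their age was 8 to 10 weeks according to the methods, although a legend states 10 to 12 weeks. Ndrg3 LKO mice carried floxed *Ndrg3*, which lacks exon 4 after recombination by Alb-Cre. The albumin promoter of Alb-Cre is active in hepatocytes, and deletion in other liver cells was not examined here. The controls were littermates called wild-type, and their floxed or Cre alleles were not spelled out.

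RAF kinases phosphorylate MEK, MEK phosphorylates ERK, and active ERK enters the nucleus, where it raises transcription of immediate-early genes and of the ETS factors' targets. Some of the induced genes encode brakes on the same cascade: DUSP6 removes phosphate from ERK, and Sprouty proteins restrain signaling between the receptor and RAF. Others carry the signal onward, such as cyclin D1, which opens the cell cycle, and in liver the pathway is best known for its part in regeneration after loss of tissue. mRNA of a target gene is one readout of the pathway and not a measure of ERK phosphorylation, which RNA sequencing does not see.

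*Ndrg3*, the targeted gene, was lower in every Ndrg3 LKO liver than in any wild-type liver. It measured 17.8, 17.8, 16.0, 19.1 and 21.9 TMM-normalized CPM, the counts scaled to library sizes adjusted by the TMM method, in wild-type replicates 1 to 5 and 7.08, 8.06, 9.18, 7.79 and 8.26 CPM in Ndrg3 LKO replicates 1 to 5. The log2 fold change was −1.20 ± 0.13 (SE, adjusted p = 3.87e-05), and −1.22 without Ndrg3 LKO replicate 5 (adjusted p = 2.20e-05). Reads were summed over all exons of *Ndrg3*, and the deleted exon 4 could not be looked at separately. Between 20872262 and 24747870 reads were counted per wild-type liver and between 23474693 and 30450057 per Ndrg3 LKO liver. Ndrg3 LKO replicate 5 stood apart from the other 4: 20 genes held 26.6% of its counts, against 16.3% to 17.3% in Ndrg3 LKO replicates 1 to 4. Hepatocyte markers, led by *Alb*, *Apoa1* and *Ahsg*, summed to 166437 CPM in replicate 5, within the 149284 to 190869 CPM of wild-type livers and above the 46064 to 52558 CPM of the other Ndrg3 LKO livers. *Alb* alone was at 108020 CPM in replicate 5 and weighed most in that sum. In the same liver *Apoa1* (14016 CPM), *Apob* (2357 CPM), *Fgb* (2526 CPM) and *Hnf4a* (362 CPM) were below every wild-type liver. The other hepatocyte markers of replicate 5 were not below the wild-type range. The fold change of each target gene is therefore given with and without this liver, and that of a pathway gene where the liver changed its call or moved it by more than 1.5-fold.

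Of the 6 target genes tested, 2 were significantly higher in Ndrg3 LKO livers (*Ccnd1* and *Egr1*), 2 were significantly lower (*Phlda1* and *Spry4*), and *Dusp6* and *Etv5* did not pass the threshold of an adjusted p of 0.05. These calls rest on the quasi-likelihood test of edgeR, with p adjusted over all genes tested by the method of Benjamini and Hochberg. The background was high: 48.6% of all genes tested passed, 25.6% higher and 23% lower, and 4 of 6 is to be read against that share. The median log2 fold change was 0.39 over the 6 genes and 0.031 over all genes, and the median of its absolute size was 0.98 against 0.48. The target genes thus moved in both directions. They were chosen with earlier results of these data known, so the share and the medians describe them and are no test of the list. Without Ndrg3 LKO replicate 5, 3 were higher and 2 lower, *Dusp6* being the gene that was added, at a background of 55.6%.

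With library size alone as the scale, 5834 genes were higher and 1005 lower, against 2865 higher and 2578 lower with TMM. On that scale the median of all genes lay at 0.56 (log2). Of the target genes, 4 were then higher and 1 lower. None of the 6 tested target genes changed sign under any scale or test tried. Once the median over all genes was subtracted, the log2 fold changes were nearly the same on both scales (4.08 and 4.09 for *Ccnd1*, −2.60 and −2.63 for *Phlda1*, −1.10 and −1.13 for *Spry4*).

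**Figure D1:**
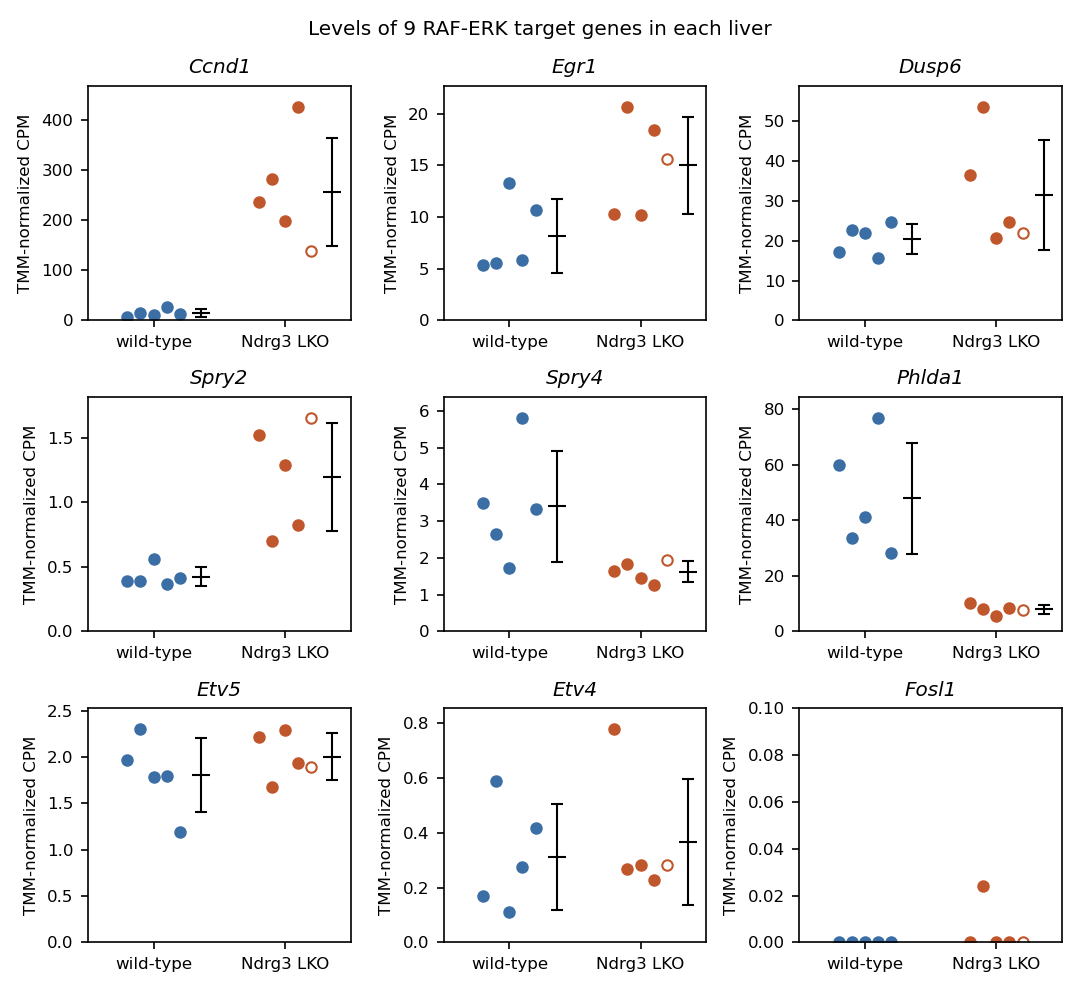
TMM-normalized CPM (y axes, each starting at 0) of the 9 target genes in 5 wild-type (blue) and 5 Ndrg3 LKO (orange) livers, 1 point per liver, with Ndrg3 LKO replicate 5 as an open circle and the mean ± SD (n = 5) as a black bar for all genes but *Fosl1*. The groups do not overlap for *Ccnd1*, *Phlda1* and *Spry2*.

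*Ccnd1* (mm9 chr7:152115836-152125774, minus strand) encodes cyclin D1, the partner of CDK4 and CDK6 that starts the passage from G1 into S phase. It measured 6.58, 14.8, 11.6, 27.0 and 13.8 CPM in wild-type replicates 1 to 5. In Ndrg3 LKO replicates 1 to 5 it measured 236, 281, 198, 425 and 139 CPM. The lowest Ndrg3 LKO liver, replicate 5, was above the highest wild-type liver, replicate 4. The rise was 17.3-fold (95% interval 9.46 to 31.7), with a log2 fold change of 4.11 ± 0.40 (SE) and an edgeR adjusted p of 2.13e-05, and 52 of all genes tested (0.464%) reached this log2 fold change or a higher one. Without replicate 5 the log2 fold change was 4.26 (adjusted p = 3.04e-06). An exact 2-sided permutation test over all splits of the livers gave p = 0.00794, the smallest it can give. *Ccnd1* overlaps *Oraov1* on the opposite strand, and since the strand setting of the counting is not given in the sources used here, reads of the pair may have been mixed. *Oraov1* had 221 to 2340 counts per liver and was itself higher in Ndrg3 LKO livers (log2 fold change 1.47, adjusted p = 0.00435), while *Ccnd1* had 2938 to 14886 counts in Ndrg3 LKO livers. In wild-type livers the 2 genes were alike in mean level, at 15.1 CPM for *Oraov1* and 14.7 CPM for *Ccnd1*. How far mixed reads affected the wild-type level, and with it the 17.3-fold rise and the shares and ratios of *Ccnd1* given below, was not tested.

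*Egr1* (mm9 chr18:35020861-35024638, plus strand) encodes a zinc finger transcription factor and is a classical immediate-early gene, switched on rapidly by ERK activation. It overlaps *Gm17507*, annotated on the opposite strand and not analysed here. Its wild-type values were 5.40, 5.58, 13.3, 5.89 and 10.7 CPM, and its Ndrg3 LKO values were 10.2, 20.6, 10.2, 18.4 and 15.6 CPM. The groups overlapped: 3 Ndrg3 LKO livers were above every wild-type liver, and replicates 1 and 3 were not. The rise was 1.84-fold (log2 fold change 0.88 ± 0.30, edgeR adjusted p = 0.0290; exact permutation p = 0.0476, and 0.0794 without Ndrg3 LKO replicate 5). The call was not robust to the choice of livers. Without Ndrg3 LKO replicate 5 the log2 fold change was 0.86 (adjusted p = 0.0371), but without wild-type replicate 1, 2 or 4 or Ndrg3 LKO replicate 2 or 4 the edgeR adjusted p was between 0.0665 and 0.0762.

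*Fosl1* (mm9 chr19:5447703-5455945, plus strand), which encodes the AP-1 subunit FRA-1, had 0 counts in 9 livers and 1 count in Ndrg3 LKO replicate 2. This is below the 3 counts taken as the smallest signal a library can show, so no level and no fold change can be given for it in either group.

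*Phlda1* (mm9 chr10:110943342-110945705, plus strand) encodes a pleckstrin homology-like domain protein induced by growth factors. It moved the other way from *Ccnd1*. Its wild-type values were 59.9, 33.5, 41.3, 76.7 and 28.2 CPM, and its Ndrg3 LKO values were 10.2, 8.20, 5.67, 8.53 and 7.70 CPM. Every Ndrg3 LKO liver was below every wild-type liver, and the level was 5.95-fold lower (log2 fold change −2.57 ± 0.28, edgeR adjusted p = 3.86e-05; exact permutation p = 0.00794). Of all genes tested, 181 (1.61%) had this log2 fold change or a lower one. Without Ndrg3 LKO replicate 5 the log2 fold change was again −2.57 (adjusted p = 3.00e-05). Replicate 5, whose hepatocyte markers summed to a wild-type level, thus had *Phlda1* and *Ccnd1* on the side of the other Ndrg3 LKO livers.

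The feedback genes *Dusp6*, *Spry2* and *Spry4* did not move together. The 250 bases before the annotated start are shown for *Dusp6* and *Spry2*, the feedback genes with an entry in the RefSeq promoter table of GRCm38.p6 (*Etv5* was the other target gene matched, 3 of 9 in all), because ETS factors are known to bind promoters of ERK targets. Each window was found once, letter for letter, in mm9. Capitals mark the ETS core GGAA on either strand (TTCC on the strand printed), 5′ to 3′ on the strand of the gene.
Dusp6, mm9 chr10:98725615-98725864, plus strand: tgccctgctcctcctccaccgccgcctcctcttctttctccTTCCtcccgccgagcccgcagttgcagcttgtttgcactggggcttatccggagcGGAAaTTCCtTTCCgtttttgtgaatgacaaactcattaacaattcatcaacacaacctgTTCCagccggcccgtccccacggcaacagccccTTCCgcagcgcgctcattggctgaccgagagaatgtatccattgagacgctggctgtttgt
Spry2, mm9 chr14:106296037-106296286, minus strand: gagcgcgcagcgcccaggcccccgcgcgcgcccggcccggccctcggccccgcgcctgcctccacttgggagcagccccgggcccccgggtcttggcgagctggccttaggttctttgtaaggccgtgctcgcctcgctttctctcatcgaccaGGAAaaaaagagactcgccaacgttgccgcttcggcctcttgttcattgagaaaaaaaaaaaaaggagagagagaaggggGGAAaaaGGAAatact
The core occurred 6 times before *Dusp6* and 3 times before *Spry2*, where the median over 32851 promoters in windows of the same length was 3 and 93.4% held at least 1. *Etv5* has 2 entries, not printed here, with 0 cores in the first window and 4 in the second. The longer ETS site CCGGAA, the AP-1 site TGANTCA and the CArG box bound by SRF were searched on both strands and were in none of these windows. They occurred in 12%, 6.75% and 1.47% of all promoters. These are letter matches and not binding sites.

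*Dusp6* (mm9 chr10:98725865-98730122, plus strand) encodes the cytoplasmic phosphatase that inactivates ERK. Its wild-type values were 17.1, 22.6, 21.9, 15.7 and 24.7 CPM, and its Ndrg3 LKO values were 36.4, 53.4, 20.7, 24.7 and 21.9 CPM. Replicates 1 and 2 of the Ndrg3 LKO livers were clearly above the wild-type range, whereas replicates 3 and 5 lay inside it and replicate 4 barely exceeded it. The log2 fold change was 0.63 ± 0.26 (95% interval 0.066 to 1.19), with an edgeR adjusted p of 0.0617 and an exact permutation p of 0.111. It passed the threshold without Ndrg3 LKO replicate 5 (0.72, adjusted p = 0.0297) or replicate 3 (0.75, adjusted p = 0.0335), with DESeq2 (adjusted p = 0.0493), with a mean CPM of at least 5 as the filter (adjusted p = 0.0442) and with library size alone (1.20, adjusted p = 0.00398). It did not pass under the other 13 of 18 alternatives, and without Ndrg3 LKO replicate 2 the log2 fold change was 0.35 (adjusted p = 0.165).

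*Spry2* (mm9 chr14:106291166-106296036, minus strand) encodes a Sprouty inhibitor of receptor tyrosine kinase signaling. It had 7, 8, 10, 8 and 7 counts in wild-type livers and 53, 29, 50, 29 and 35 counts in Ndrg3 LKO livers, or 0.394, 0.391, 0.558, 0.368 and 0.417 CPM against 1.53, 0.704, 1.29, 0.828 and 1.65 CPM. All 5 Ndrg3 LKO livers were above all wild-type livers, and the ratio of the means was 2.82. Only 4 livers, all Ndrg3 LKO, reached 1 CPM, where the filter asks for 5, so *Spry2* was not among the genes tested. The exact permutation p was 0.00794 with and without Ndrg3 LKO replicate 5, and a fit with no filter gave a log2 fold change of 1.44 ± 0.33 (edgeR adjusted p = 0.00421). The groups of 3 of the 9 target genes did not overlap, *Ccnd1*, *Phlda1* and *Spry2*, and 2 of these 3 were tested, where 31.5% of all genes tested had groups that did not overlap (15.6% higher and 15.9% lower).

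*Spry4* (mm9 chr18:38745922-38760922, minus strand), which encodes another Sprouty inhibitor, moved the opposite way from *Spry2*. Its wild-type values were 3.49, 2.64, 1.73, 5.80 and 3.34 CPM, and its Ndrg3 LKO values were 1.64, 1.84, 1.44, 1.26 and 1.94 CPM. The ranges overlapped through wild-type replicate 3, and all 5 Ndrg3 LKO livers were below the wild-type mean. *Spry4* was 2.10-fold lower (log2 fold change −1.07 ± 0.29, edgeR adjusted p = 0.0101; exact permutation p = 0.0238). Without Ndrg3 LKO replicate 5 it was −1.15 (adjusted p = 0.00859). With library size alone it was −0.57, and the call was lost (adjusted p = 0.130).

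The ETS factors *Etv5* (mm9 chr16:22381382-22439792, minus strand) and *Etv4* (mm9 chr11:101631056-101646685, minus strand), of the PEA3 group, are targets of ERK signaling and in turn activate further targets. *Etv5* measured 1.97, 2.30, 1.78, 1.79 and 1.19 CPM in wild-type livers and 2.22, 1.67, 2.29, 1.94 and 1.89 CPM in Ndrg3 LKO livers. These ranges coincide, and the log2 fold change of 0.15 ± 0.21 had a 95% interval from −0.31 to 0.60 (edgeR adjusted p = 0.585; without Ndrg3 LKO replicate 5, 0.15 and adjusted p = 0.592). With library size alone *Etv5* passed (0.67, adjusted p = 0.0277), which is 0.11 relative to the median of all genes on that scale. *Etv4* had 3, 12, 2, 6 and 7 counts in wild-type livers and 27, 11, 11, 8 and 6 counts in Ndrg3 LKO livers, too few to be tested. The 27 counts of Ndrg3 LKO replicate 1 were the highest value, the groups overlapped, and a difference was not detectable at this depth (exact permutation p = 0.675, and 0.611 without replicate 5).

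**Figure D2:**
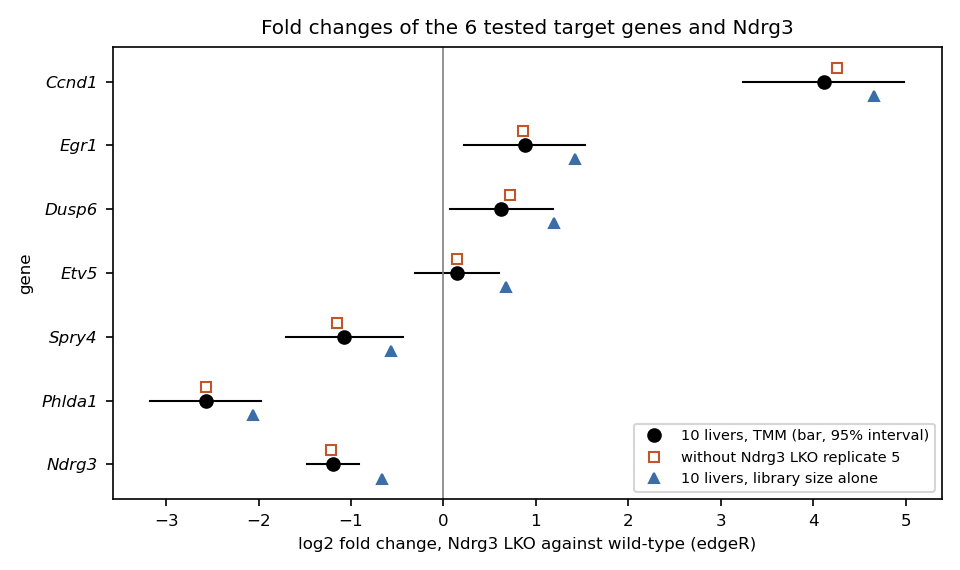
log2 fold change of Ndrg3 LKO against wild-type livers (x axis) for the 6 tested target genes and *Ndrg3* (y axis). Black circles with 95% intervals are the edgeR fit of 10 livers, open squares the fit without Ndrg3 LKO replicate 5, and triangles library size alone. Library size alone lies to the right of the TMM fit for every gene, and no gene crosses 0.

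Expressed per kilobase of exon, so that genes can be compared with each other, *Phlda1* was the highest target gene in wild-type livers at 24.5 ± 10.3 CPM per kb (SD, n = 5). *Dusp6* (7.29 ± 1.36), *Ccnd1* (3.85 ± 1.96), *Egr1* (2.63 ± 1.16), *Spry4* (0.741 ± 0.329), *Etv5* (0.441 ± 0.098), *Spry2* (0.204 ± 0.036) and *Etv4* (0.101 ± 0.062) followed in CPM per kb. In Ndrg3 LKO livers *Ccnd1* came first at 66.7 ± 28.2 CPM per kb, followed by *Dusp6* (11.2 ± 4.93), *Egr1* (4.84 ± 1.52), *Phlda1* (4.13 ± 0.835), *Spry2* (0.575 ± 0.201), *Etv5* (0.488 ± 0.062), *Spry4* (0.354 ± 0.061) and *Etv4* (0.119 ± 0.074). Neighbors in this order that differed by less than the larger of their SDs were *Ccnd1* and *Egr1* and *Spry4* and *Etv5* in wild-type livers, and *Egr1* and *Phlda1* and *Spry2* and *Etv5* in Ndrg3 LKO livers. *Phlda1* went from the first place to the fourth, and *Ccnd1* from the third to the first.

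The leading gene of the family, by mean share of its mRNA, changed for the D cyclins and the *Phlda* genes and not for the Sprouty genes or the ERK-pathway phosphatases. Among the D cyclins, *Ccnd1* held 21.9% ± 8.32 (SD, n = 5) of the summed CPM per kb in wild-type livers and 80.3% ± 9.16 in Ndrg3 LKO livers, with the lowest share, 66.4%, in replicate 5. *Ccnd3* held 76.6% ± 8.16 in wild-type livers and did not change significantly in level (log2 fold change 0.067, adjusted p = 0.743). *Phlda1* held 96.1% ± 2.44 of the *Phlda* mRNA in wild-type livers and 44.0% ± 14.2 in Ndrg3 LKO livers, where *Phlda3*, a p53 target, had risen (log2 fold change 3.06, adjusted p = 0.000248) to 55.1% ± 14.7. In Ndrg3 LKO replicate 5, however, *Phlda1* still held the larger share, 65.6% against 32.3% for *Phlda3*. Among the Sprouty genes *Spry1* held the largest mean share in both groups, 55.6% ± 13.2 and 69.6% ± 9.44, and rose in level (log2 fold change 0.86, adjusted p = 0.00905), while the share of *Spry4* was 34.8% ± 14.3 and 11.6% ± 2.73. *Dusp6* held 88.5% ± 3.48 and 89.4% ± 2.32 of the mRNA of the ERK-pathway phosphatases *Dusp4*, *Dusp5*, *Dusp6*, *Dusp7* and *Dusp9*.

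The following 4 ratios of counts within a liver, chosen after the values had been seen, do not depend on the scaling of libraries. The median of *Ccnd1* over *Ccnd3* was 0.451 in wild-type and 7.56 in Ndrg3 LKO livers, that of *Phlda1* over *Phlda3* was 32.2 and 0.887, and that of *Spry2* over *Spry4* was 0.125 and 0.854. For each of these 3 ratios the groups did not overlap (exact 2-sided permutation test, unadjusted p = 0.00794; without Ndrg3 LKO replicate 5, 0.0159 for *Spry2* over *Spry4* and 0.00794 for the others). The median of *Dusp6* over *Dusp7* was 11.5 and 12.9, with overlapping groups (exact permutation p = 0.206). Because the 4 pairs were chosen on these same values, each p describes how far the groups separate and is no independent test.

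**Figure D3:**
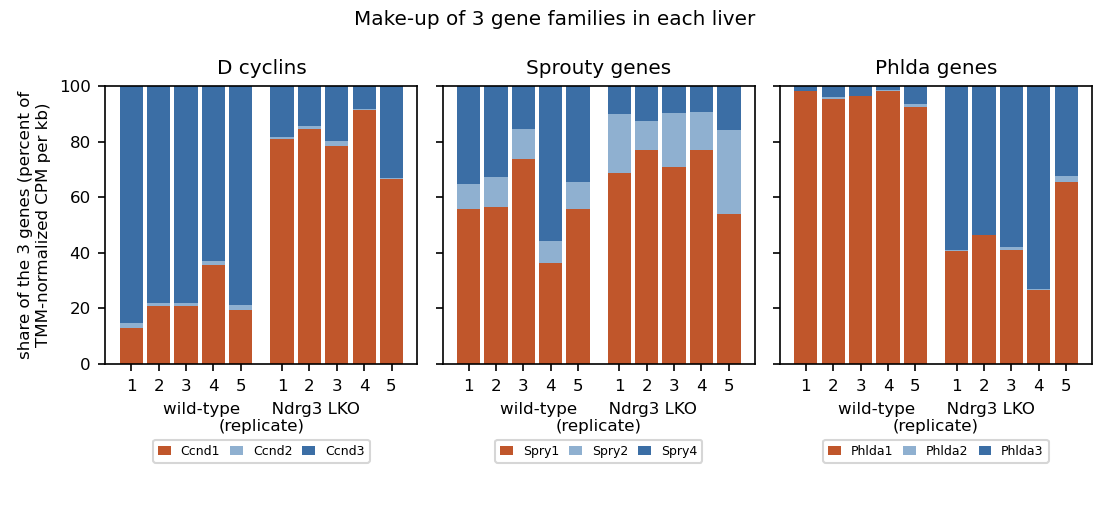
Share of each gene in the summed TMM-normalized CPM per kb of 3 families (y axis, percent), stacked for each liver (x axis, replicate number). *Ccnd1* and *Phlda3* take a larger share in every Ndrg3 LKO liver than in any wild-type liver, and *Phlda1* and *Ccnd3* a smaller one.

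The genes that carry the signal to these targets were described from 13 lists of other ERK pathway genes, 120 in all. Of these, 119 were found and 92 were tested, and 35 were higher and 17 lower in Ndrg3 LKO livers by edgeR's test, so that 56.5% passed where 48.6% of all genes did. Without Ndrg3 LKO replicate 5 the counts were 38 and 18 of 95 tested, with the higher or lower count of each list changed by at most 1, and with library size alone they were 60 and 2 of 92. Falls of modest size in these lists therefore depended on the scale. The median log2 fold change of the 92 was 0.18, against 0.031 for all genes. These lists too were chosen with earlier results of these data known, so the share and the median are descriptions only.

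At the top of the cascade, 2 of 5 tested ligands were higher, *Hgf*, the hepatocyte growth factor (log2 fold change 1.19 ± 0.37, adjusted p = 0.0187), and *Pdgfa* (0.73 ± 0.20, adjusted p = 0.0101). *Fgf1* was lower, at 203 ± 26.5 CPM in wild-type livers and 23.3 ± 21.1 CPM in Ndrg3 LKO livers (log2 fold change −3.13 ± 0.49, adjusted p = 0.000393; −3.83 without Ndrg3 LKO replicate 5, where it was at 59.1 CPM). The EGF receptor ligand *Areg* (amphiregulin) was not tested under the filter and was named after its values had been seen: it had 0 CPM in all 5 wild-type livers and 0.803 to 7.84 CPM in Ndrg3 LKO livers. Of 13 tested receptor tyrosine kinase genes 5 were higher and 6 lower. The HGF receptor *Met* was lower (71.3 ± 8.26 CPM against 29.6 ± 9.96, log2 fold change −1.27, adjusted p = 0.000375), and *Kit* (1.1, adjusted p = 0.0102) and *Fgfr3* (0.997, adjusted p = 0.0106) were higher. *Erbb3*, the HER3 receptor (−1.57, adjusted p = 0.0447), lost its call without Ndrg3 LKO replicate 5 (−1.33, adjusted p = 0.0503), as without 6 other livers, each left out in turn. Of 9 adaptors and exchange factors, which link receptors to RAS, 3 were higher, among them *Rasgrp3* (0.97, adjusted p = 0.00667) and *Gab2* (0.87, adjusted p = 0.00437), and 5 were lower, among them *Grb2* (−0.54, adjusted p = 0.00779) and *Gab1* (−0.43, adjusted p = 0.00996). With library size alone *Grb2* was at −0.043 and *Gab1* at 0.077, and neither passed.

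In the cascade itself kinases moved in both directions. Of the RAF genes, *Araf* had a log2 fold change of −0.11 (adjusted p = 0.392), while *Braf* was lower (−0.52, adjusted p = 0.0264). *Braf* lost its call without wild-type replicate 4 and without Ndrg3 LKO replicate 1, 3 or 4, at adjusted p between 0.0512 and 0.0665. Of the MEK genes, *Map2k1* was lower (51.4 ± 3.98 CPM against 34.1 ± 4.11, log2 fold change −0.59, adjusted p = 0.00163), whereas *Map2k2* was at 0.071 (adjusted p = 0.746). *Mapk3*, which encodes ERK1, was higher (24 ± 1.9 CPM against 40.4 ± 5.6, log2 fold change 0.75, adjusted p = 0.000527). With library size alone *Map2k1* was at −0.076 (adjusted p = 0.637) and *Braf* at 0.033, and neither passed on that scale. In the list of RAF, MEK and ERK kinases and their scaffolds, 4 of 12 tested genes were higher and 2 lower. The scaffold genes *Lamtor3* (0.96, adjusted p = 0.000279) and *Iqgap1* (0.88, adjusted p = 0.00107) and the RAS-related *Rras2* (0.89, adjusted p = 0.00219) were higher. Of 5 tested kinases downstream of ERK 2 were higher and 0 lower, the RSK genes *Rps6ka1* (0.60, adjusted p = 0.0143) and *Rps6ka3* (0.48, adjusted p = 0.0299), and *Rps6ka3* lost its call without any one of 7 livers. *Mknk2*, which encodes a kinase of the translation factor eIF4E, was at −0.30 (adjusted p = 0.287) and was lower without Ndrg3 LKO replicate 5 (−0.61, adjusted p = 0.00156).

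Among other brakes, *Errfi1*, an inhibitor of the EGF receptor, was the most abundant (1495 ± 75.5 CPM against 896 ± 137) and was lower by 0.74 on the log2 scale (adjusted p = 0.00222), as was the RAS GTPase-activating *Rasa2* (−0.79, adjusted p = 0.0128). On library size alone neither passed (adjusted p = 0.206 and 0.446). None of the other 5 tested brakes passed, although *Rasal2* did without Ndrg3 LKO replicate 5 (0.83, adjusted p = 0.00978). Of 3 other Sprouty and Spred genes tested, *Spry1* was higher and 0 were lower. Of 5 other MAPK phosphatases tested, 3 were higher, among them *Dusp8* (0.97, adjusted p = 0.0172) and *Dusp10* (0.78, adjusted p = 0.00340). *Dusp1*, a phosphatase encoded by an immediate-early gene, was at −0.16 (adjusted p = 0.71) with 129 CPM in Ndrg3 LKO replicate 5, the highest of all livers, and was lower without that liver (−0.65, adjusted p = 0.00874).

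Among the other transcription factors of the pathway, no tested gene was significantly lower. Of 13 tested immediate-early genes other than *Egr1*, 7 were higher, with the largest rises in *Klf6* (4.53 ± 0.570 CPM against 32.6 ± 16.6, log2 fold change 2.85, adjusted p = 5.70e-05) and *Ier3* (2.45, adjusted p = 2.15e-05). *Ier3* had at most 0.775 CPM in wild-type livers and passed the filter through the Ndrg3 LKO livers alone. *Fos*, named after its values had been seen, was at 0.719 ± 0.585 CPM against 2.73 ± 1.59 (1.93, adjusted p = 0.0143). Its groups overlapped (0.245 to 1.61 CPM in wild-type and 0.921 to 4.71 CPM in Ndrg3 LKO livers). The 6 tested genes of this list that did not pass included *Jun* (0.55, adjusted p = 0.0629) and *Junb* (0.52, adjusted p = 0.0530). *Myc* was at −0.54 (adjusted p = 0.360). Of 6 tested ETS factors other than the PEA3 group, 3 were higher, including *Ets2* (24.4 ± 4.14 CPM against 90.4 ± 30.0, log2 fold change 1.89, adjusted p = 0.000125) and *Elk3* (1.43, adjusted p = 0.000405). In the list of other D cyclins and G1 genes (7 tested), *Ccnd2* (1.6, adjusted p = 0.00116) and *Ccne1* (1.36, adjusted p = 0.0142) were higher beside *Ccnd1*, and *Cdkn1b*, which encodes the CDK inhibitor p27, was lower (−0.93, adjusted p = 0.00287). With library size alone *Cdkn1b* was at −0.44 and did not pass (adjusted p = 0.0665).

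**Figure D4:**
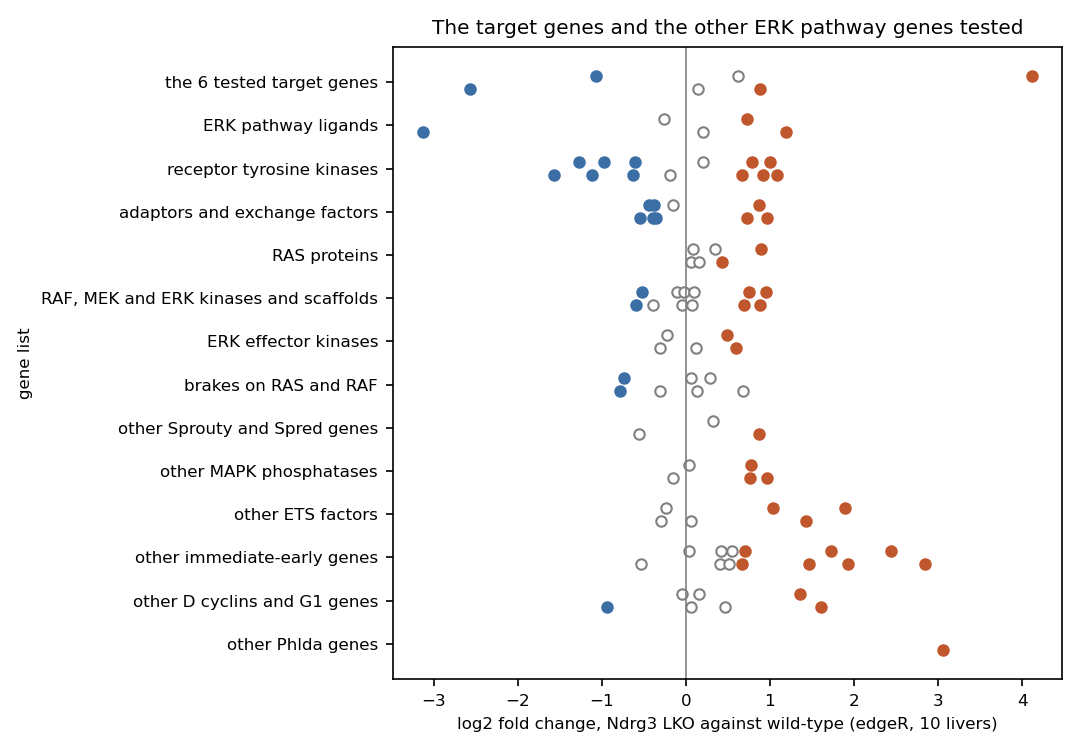
log2 fold change of Ndrg3 LKO against wild-type livers (x axis) of each tested gene, by list (y axis), with the 6 tested target genes in the top row. Filled circles passed an edgeR adjusted p of 0.05 (orange, higher; blue, lower) and open circles did not. *Ccnd1*, at 4.11, lies to the right of all 92 other pathway genes, and only *Fgf1* lies to the left of *Phlda1*.

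Markers of the cells a liver sample can hold also moved with the genotype, and their part in the values above was not tested. In these bulk samples, fewer cells of a type and less RNA per cell cannot be told apart. Of 11 tested hepatocyte markers 7 were lower and 0 higher. Kupffer cell and macrophage markers summed to 121 to 327 CPM in wild-type and 264 to 857 CPM in Ndrg3 LKO livers, and 11 of 11 were higher. Endothelial markers summed to 67.6 to 94.3 CPM and 149 to 188 CPM (8 of 9 higher), and stellate cell and fibroblast markers to 117 to 183 CPM and 251 to 329 CPM (6 of 9 higher). Of 6 tested cholangiocyte markers 1 was higher and 1 lower, with sums of 49.9 to 80.6 CPM and 57.0 to 229 CPM. Markers of T and B cells (1.61 to 3.20 CPM against 1.67 to 9.77 CPM) and of neutrophils and monocytes (1.01 to 2.12 CPM against 2.06 to 13.8 CPM) were too low to be tested. No marker was at 0 in all livers. Without Ndrg3 LKO replicate 5 the number of markers higher or lower in each list changed by at most 1.

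Of 18 listed proliferation genes 14 were tested and 4 were not. Of the 14, 11 were higher and 0 lower, with and without Ndrg3 LKO replicate 5, where 25.6% of all genes tested were higher with 10 livers. Cyclin D1 acts ahead of these cell cycle genes, but a link between their levels and that of *Ccnd1* was not tested. For 9 of the 14, every Ndrg3 LKO liver was above every wild-type liver. Of these, *Top2a*, *Ccnb1*, *Ccnb2*, *Bub1b* and *Cdc20* were below 1 CPM in every wild-type liver. They could pass the filter only with all 5 Ndrg3 LKO livers at 1 CPM, so the filter fixed their separation and favored their calls. The others were *Mki67*, *Aurka*, *Mcm2* and *Mcm5*. The 9 are therefore no measure against the 15.6% of all genes tested that separated in this direction. The most abundant genes of the list, *Pcna* (log2 fold change 0.034, adjusted p = 0.92) and *Rrm2* (0.12, adjusted p = 0.873), did not pass and weigh most in its sum. That sum was 54.5 to 72.1 CPM in wild-type livers and 204, 63.1, 56.3, 142 and 261 CPM in Ndrg3 LKO replicates 1 to 5.

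**Figure D5:**
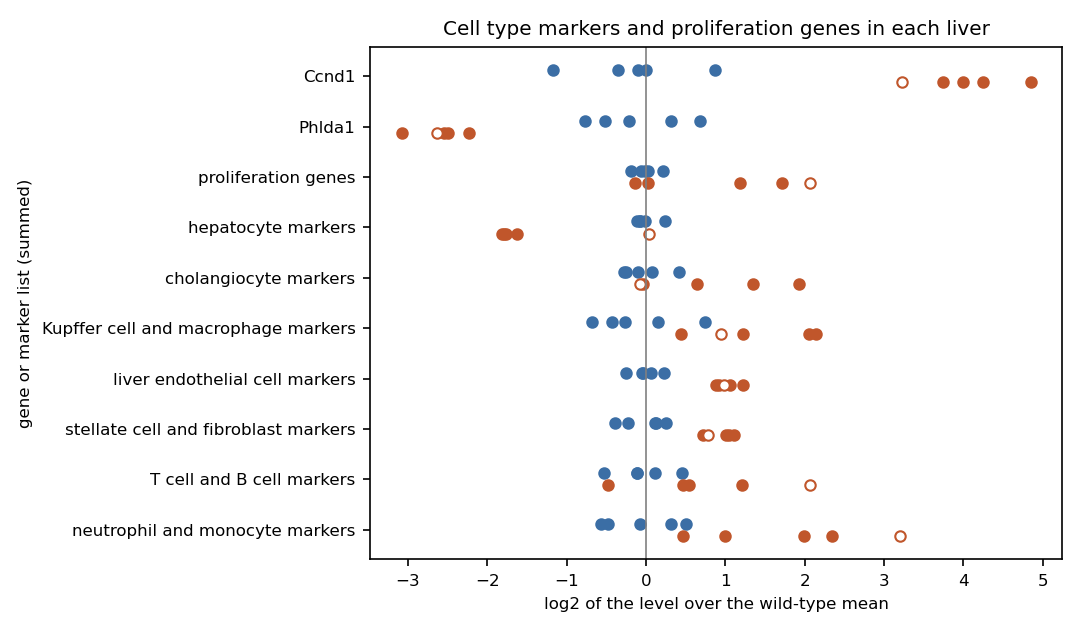
log2 of the level in each liver over the wild-type mean (x axis) for *Ccnd1*, *Phlda1* and the summed markers of each list (y axis). Blue circles are wild-type livers, orange circles Ndrg3 LKO livers, and open circles Ndrg3 LKO replicate 5. That liver lies with wild-type livers for the summed hepatocyte markers, in which *Alb* weighs most, and with the other Ndrg3 LKO livers for *Phlda1*.

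The gene whose log2(CPM + 1) was most like that of each tested target gene over the 10 livers was *Phldb1* for *Ccnd1* (Pearson r = 0.992), *Serpina4-ps1* for *Phlda1* (r = 0.987), *Tmem104* for *Spry4* (r = 0.971), *Large* for *Dusp6* (r = 0.929), *Cdv3* for *Egr1* (r = 0.905) and *D11Wsu47e* for *Etv5* (r = 0.900). These are descriptions over 10 livers of 2 groups, picked as the highest of all genes tested, and for *Ccnd1* and *Phlda1* they carry the difference between the groups.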

How the data were processed

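RNA of 10 livers was sequenced by the authors from stranded mRNA libraries with paired-end reads of 100 bp, and mapped to mm9 and counted per gene with STAR. The submitters' processing notes name bcl2fastq, Trim Galore 0.6.4, STAR 2.7.3a and Cufflinks 2.2.1, while the methods name an earlier STAR version. The annotation and strand setting are not given in the sources used here. The deposited files are titled CPM but hold whole-number counts with unequal totals, so they were treated as raw counts.

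Counts were analysed with R 4.3.3 and edgeR 4.0.16 (TMM, quasi-likelihood test) for genes that reached 1 CPM in 5 or more livers (4 where a group had 4), with Benjamini-Hochberg adjustment at 0.05 and SEs from the same fit. DESeq2 1.42.0 and limma 3.58.1 were alternatives. Permutation tests used log2(CPM + 1), were 2-sided and exact over all splits of the livers, and their p are unadjusted. The target genes and all lists were chosen with earlier results of these data known. All target genes are named, and from each pathway list up to 2 tested genes with the largest rise and fall, with RAF, MEK and ERK genes; some results of this kind are not reported here; *Areg*, *Fos*, *Ccnd3*, *Dusp7*, the other phosphatases of its family and the overlapping gene were named after their values were seen. Nothing in the labels says more than that the livers are separate samples; the 20 replicate pairs differed by more than sampling noise (chi-square per degree of freedom 25.7 to 450). Replicate numbers 1 to 5 occur in both groups, and the labels do not say whether they pair the livers. The livers were treated as unpaired. In a simulation in which 200 of 11208 genes were changed, edgeR recovered 69 of 100 genes changed 2-fold and 98 of 100 changed 4-fold, with 9 false calls among 176. Floors of 3 counts cover counting error only. Gene positions are from GENCODE for NCBIM37 (mm9).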

Additional observations from a re-analysis of the deposited data

Results flagged for a closer look

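Of 44 groups of values examined for a single liver far from the rest of its group, 8 had one, where chance gives about 1 in 20. Among the target genes, *Spry2* in wild-type replicate 3 (0.558 CPM, against 0.368 to 0.417 in the other wild-type livers), *Etv4* in Ndrg3 LKO replicate 1 (0.777 CPM, against 0.228 to 0.284) and *Fosl1* in Ndrg3 LKO replicate 2 (0.0243 CPM, from its 1 count, against 0) stood apart. Even so, wild-type replicate 3 was below all Ndrg3 LKO livers for *Spry2*.

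The other 5 concern whole libraries. The TMM factor of wild-type replicate 4 was 0.916, against 0.805 to 0.829 in the other wild-type livers, and this liver also had the highest wild-type *Ccnd1*, *Phlda1* and *Spry4*. The hepatocyte markers of wild-type replicate 1 summed to 190869 CPM, against 149284 to 161201. Ndrg3 LKO replicate 5 stood apart in the share of its 20 highest genes (26.6%, against 16.3% to 17.3%), on the first principal component (14.1, against 51.1 to 56.6) and in its summed hepatocyte markers (166437 CPM, against 46064 to 52558).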

How the results depend on the processing

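Of 946 recomputed single-gene values, 878 kept their direction and side of the threshold, 36 lost a call, 15 gained one and 17 changed sign. None of the 6 tested target genes changed sign; *Spry2*, *Etv4* and *Fosl1* were run under 2 alternatives each. Leaving out each liver gave 3 to 5 target genes, 46 to 56 other pathway genes and 4703 to 6360 genes in all past the threshold. Requiring an absolute log2 fold change above 1 left 2301 genes and 17 pathway genes. *Egr1* was the target gene most often lost, without 5 of 10 livers; its adjusted p over all alternatives ran from 0.00196 to 0.0762.

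With library size alone the log2 fold change turned positive for *Araf* (0.42), *Braf* (0.033), *Cdk4* (0.45), *Dusp1* (0.27), *Elk1* (0.28), *Elk4* (0.23), *Fgf21* (0.31), *Gab1* (0.077), *Mknk1* (0.32), *Mknk2* (0.15), *Myc* (0.017) and *Spred2* (0.029), as that scale raises all genes. A mean CPM of at least 5 gave *Cdk4* 0.0076. With each liver left out in turn, *Cdk4* ran from −0.16 to 0.031 (positive without Ndrg3 LKO replicate 3), *Dusp1* from −0.65 (without Ndrg3 LKO replicate 5) to 0.0017 (without Ndrg3 LKO replicate 2) and *Map2k2* from −0.018 to 0.14 (negative without wild-type replicates 1 and, at −0.011, 4).

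When replicate numbers entered as a block, 4412 genes, 4 target genes (2 higher, 2 lower) and 43 pathway genes passed. Deviations from the group mean had correlations of −0.357 to 0.0363 between livers with the same number. With 5 livers in a group and Ndrg3 LKO replicate 5 far from the others, these correlations cannot exclude a pairing. *Braf*, *Erbb3*, *Hgf* and *Rps6ka3* lost their calls in the fit with the block, and no target gene did.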
